A study of Homo sapiens with 6 samples.

Results

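The genes of myeloid granules and of the myeloid lineage were examined in REH cells, a human leukemia line of B-cell precursor origin in which ETV6 and RUNX1 are fused. The 10 genes were MPO, ELANE, PRTN3, AZU1, CTSG, LYZ, CEBPA, CEBPE, CSF3R and CSF1R. They were chosen by their role and by the fall of MPO after silencing of the fusion. The values of MPO are therefore given as a description with no test. Other earlier results of these data were also known when the genes were chosen. Members were the catalogue probes of the array whose RefSeq accession belongs to one of these genes. Of the 10 genes, 9 had such a probe, 1 probe each, among 19717 genes so named and 57176 probes in all. LYZ, which encodes lysozyme, had no probe matched in this way and was not analysed here. Of the 9 probes, 5 passed a filter on dim probes and could be compared. Leaving out MPO, which is not tested, CSF3R alone of these was called, at a lower level in the knockdown. Of all probes that passed the filter, 1.30% were called lower. The call of CSF3R held under 7 of 17 other settings of the processing.

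Expression was measured on 6 one-color Agilent arrays. The control group held 3 arrays of REH cells with an shRNA that the labels call non-targeting. The knockdown group held 3 arrays of REH cells with an shRNA against ETV6/RUNX1. Per the methods, the control hairpin was itself designed on ETV6 but does not act on the fusion. All cells were transduced with a GFP lentivirus and sorted for GFP after 72 hours, so the controls also carry the vector and went through the sort. REH has lost the other ETV6 allele, and it is 1 cell line. The labels number the arrays of either group 1 to 3, and the study calls them biological triplicates.

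Neutrophils and monocytes store enzymes in granules that form at the promyelocyte stage, the azurophil granules. Myeloperoxidase (MPO), stored in them, makes hypochlorous acid, and neutrophil elastase (ELANE), proteinase 3 (PRTN3) and cathepsin G (CTSG) are serine proteases, of which azurocidin (AZU1) is an inactive relative. The transcription factor CEBPA drives commitment to granulocytes and CEBPE their later maturation, and the receptors of the growth factors G-CSF (CSF3R) and M-CSF (CSF1R) carry the signals for granulocytes and monocytes. RUNX1 and C/EBP factors are known to bind promoters of several of these genes in myeloid cells. Detection of MPO is used to assign an acute leukemia to the myeloid lineage, whereas REH belongs to the B lineage.

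RefSeq promoter sequences (GRCh38.p14, the 250 bases before each start of transcription, 5′ to 3′ on the strand of the gene) are shown for the receptors, since CSF3R was called and CSF1R was not. Capitals mark matches, on either strand, to TGTGGT or TGCGGT, spellings of the RUNX site, and to TTGCNNAA, a spelling of the C/EBP site.
CSF3R, start 1, chr1:36483315-36483564, minus strand: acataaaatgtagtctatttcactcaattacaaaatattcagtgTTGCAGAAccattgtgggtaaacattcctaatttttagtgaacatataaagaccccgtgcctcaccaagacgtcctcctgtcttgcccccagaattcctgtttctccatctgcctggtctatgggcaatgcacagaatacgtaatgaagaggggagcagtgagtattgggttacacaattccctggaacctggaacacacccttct
CSF3R, start 2, chr1:36482914-36483163, minus strand: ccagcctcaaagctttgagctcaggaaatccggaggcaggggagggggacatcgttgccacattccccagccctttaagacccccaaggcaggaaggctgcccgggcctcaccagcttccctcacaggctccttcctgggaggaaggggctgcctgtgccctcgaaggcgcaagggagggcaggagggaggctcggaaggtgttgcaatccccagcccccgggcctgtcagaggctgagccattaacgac
CSF1R, start 2, chr5:150086555-150086804, minus strand: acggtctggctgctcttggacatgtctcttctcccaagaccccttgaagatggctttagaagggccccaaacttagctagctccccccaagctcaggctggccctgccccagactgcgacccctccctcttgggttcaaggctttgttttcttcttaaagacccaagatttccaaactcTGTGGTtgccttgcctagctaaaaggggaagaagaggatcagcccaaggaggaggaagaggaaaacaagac

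The first CSF3R window held a C/EBP match, TTGCAGAA, at position -206 to -199 from the start, and the second window held no match. CSF1R held a RUNX match, TGTGGT, at position -71 to -66 of its second start and none in the window of its first start. C/EBP matches also lay in the windows of PRTN3, at position -62 to -55, and of AZU1, at position -111 to -104, where the gene's own strand reads TTGGGCAA and the match is on the other strand, and the windows of CTSG, CEBPA and CEBPE held none of the 3 spellings. Among 35116 promoters of this length, 9.05% held the C/EBP spelling, 11.0% held TGTGGT and 5.84% held TGCGGT. The spellings do not overlap each other in the windows shown. The promoter set held an entry for 7 of the 10 genes and none for MPO, ELANE and LYZ, whose windows were not searched. These are descriptions of letters and not of bound sites. Which start is used in REH cells was not measured.

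Values below are raw median spot intensities brought to one scale between arrays and given as log2. A probe was retained, and so tested, when its value passed a threshold set from negative control spots on 2 or more of a group's 3 arrays. This threshold lay between 5.77 and 6.22 on single arrays, and 27062 of 57176 probes were retained. Groups were compared with limma, and a probe is said to be called where its Benjamini-Hochberg adjusted p, taken over the retained probes, was under 0.05. Of the retained probes, 1.78% were called in either direction, 1.30% were called lower in the knockdown, and the groups did not overlap for 18.9%. With the replicate number as a block 3.99% were called, 2.53% lower and 1.46% higher. This block assumes that arrays of the same number belong together. An exact permutation test (two-sided) over 3 and 3 arrays has 0.1 as its smallest p. The flag of the scanner software put 45.8% to 50.9% of probes well above background on single arrays, with the lowest share on control 3. All arrays lay on 1 slide and had 1 scan. Controls 1 and 2 were in slide row 1, and control 3 and the knockdown arrays in slide row 2, so a value within row 2 sets 1 control against 3 knockdown arrays. The probe of ETV6 that was above background measured 8.12 ± 0.23 (SD, n = 3) in controls and 7.43 ± 0.11 in the knockdown, a difference of -0.69 (SE 0.13, limma adjusted p = 0.0498). It was lower under all 17 other settings described below and called under 2 of them, with adjusted p from 0.0524 to 0.186 when any 1 array was left out. The other ETV6 probe was well above background on 0 arrays, and where either probe lies relative to the fused portion was not analysed here.

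First, the azurophil granule proteins were examined. MPO (probe A_23_P141173) was among the bright probes of the array in controls and lower on every knockdown array. It measured 14.02, 13.97 and 13.86 in controls 1, 2 and 3, and 12.30, 11.68 and 11.81 in knockdown arrays 1, 2 and 3. The groups did not overlap, and the lowest control lay 1.56 above the highest knockdown array. The mean went from 13.95 ± 0.08 (SD, n = 3) to 11.93 ± 0.33, a difference of -2.02 (SE 0.16) or 4.06-fold. In raw intensity the spot read 15820, 16088.5 and 15892 in controls against 5917, 3069 and 3304 in the knockdown. Its log2 fold change ranked 20 from the lowest among the 27062 retained probes. The differences between arrays of the same number were -1.72, -2.29 and -2.05, and the difference within slide row 2 was -1.93. On each knockdown array MPO was still 5.84 or more above the threshold. Fewer cells with a transcript and less transcript per cell cannot be told apart in such bulk samples.

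ELANE, PRTN3 and AZU1, the serine protease genes that lie side by side on chromosome 19, were at the level of background and could not be tested. ELANE (A_23_P130961) measured 5.16, 5.23 and 5.30 in controls and 5.21, 5.12 and 5.38 in the knockdown. All 6 values of ELANE lay below the threshold of their array, and it was well above background on 0 arrays. PRTN3 (A_23_P142345) measured 5.76, 5.63 and 5.43 in controls and 5.69, 5.59 and 5.90 in the knockdown, and was over the threshold on knockdown 3 alone. AZU1 (A_33_P3279353) measured 7.12, 4.88 and 4.96 in controls and 5.16, 5.01 and 5.27 in the knockdown. A single array thus stood out for AZU1, control 1, with a raw intensity of 145 against 42 to 51.5 on the other arrays. Its probe was well above background on 1 of 3 control arrays and 0 knockdown arrays, and controls 2 and 3 lay below all knockdown arrays, so no change is given for it. For probes at this level a fall like that of MPO was not detectable.

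CTSG (A_23_P140384) passed the filter, although its values lay close to the threshold. It measured 7.08, 5.95 and 5.43 in controls and 8.07, 5.83 and 6.13 in the knockdown, and it was over the threshold on 4 arrays. Groups overlapped, and the highest array of each group was its replicate 1. The difference was 0.52 (SE 0.61, limma adjusted p = 0.781), with a 95% interval from -0.89 to 1.93. With values this close to background, a fall of the size seen for MPO was not detectable. The difference moved with the setting, to 0.87 (adjusted p = 0.0150) with arrays scaled on spike-in controls, 1.16 (0.764) with the processed signal and 1.24 (0.872) with the slide row as a term. With single arrays left out it ran from -0.18 without knockdown 1 to 0.98 without control 1.

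**Figure D1:**
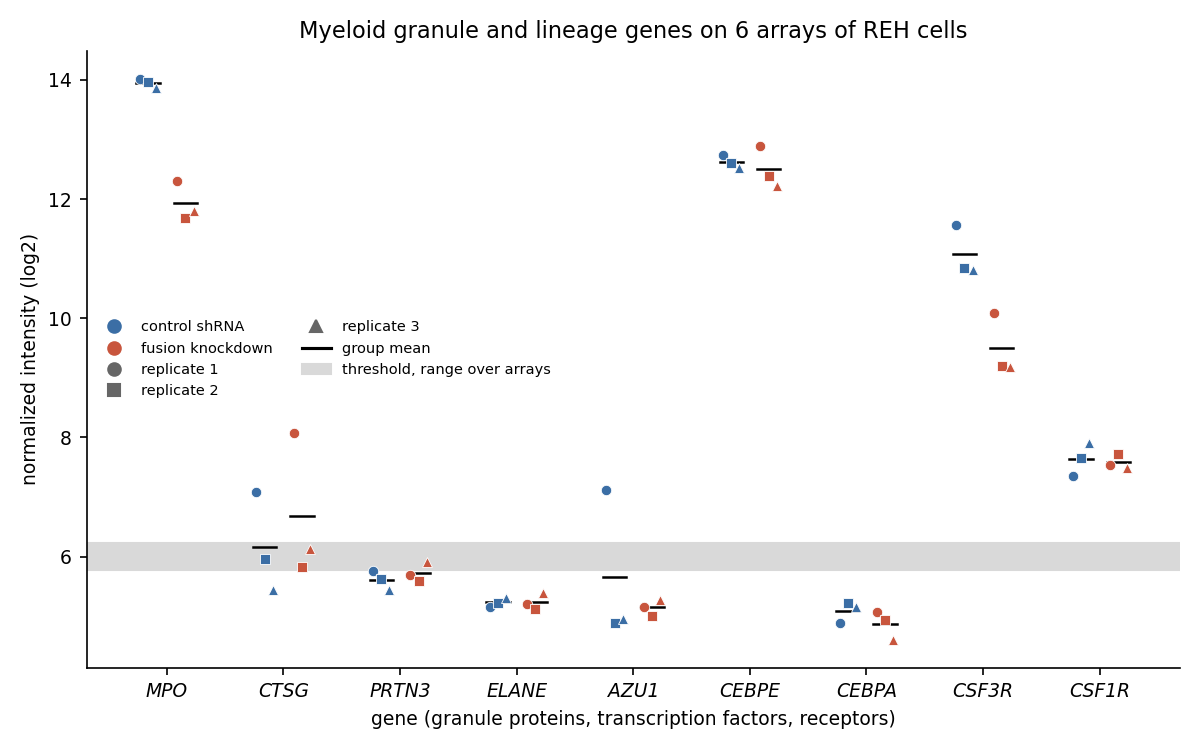
Normalized intensity (log2) of the 9 genes with a probe on each of the 6 arrays, with control arrays in blue and knockdown arrays in red, the replicate number as the symbol, and the group mean as a black line. The grey band is the range of the threshold over arrays, 5.77 to 6.22. MPO, CEBPE, CSF3R and CSF1R lie above it on all arrays, whereas ELANE and CEBPA lie below it on all arrays.

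Next, the transcription factors were examined. CEBPE (A_33_P3387991) was bright and similar in both groups. It measured 12.74, 12.60 and 12.52 in controls and 12.88, 12.40 and 12.21 in the knockdown. The groups overlapped, with the highest and the lowest array both in the knockdown. The difference was -0.12 (SE 0.17, limma adjusted p = 0.822), with a 95% interval from -0.52 to 0.27, and it was -0.02 within slide row 2. CEBPA (A_24_P224727) measured 4.88, 5.23 and 5.16 in controls and 5.07, 4.93 and 4.60 in the knockdown. It was below the threshold and not well above background on each of the 6 arrays, so no change could be measured for it.

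Of the growth factor receptors, CSF3R was lower in the knockdown and CSF1R was not called. CSF3R (A_33_P3881262) measured 11.56, 10.84 and 10.81 in controls and 10.09, 9.20 and 9.19 in the knockdown. Every knockdown array lay below every control array, and replicate 1 was the highest array of both groups. The mean fell from 11.07 ± 0.43 (SD, n = 3) to 9.49 ± 0.52, a difference of -1.58 (SE 0.29, limma adjusted p = 0.0375) or 2.98-fold, with a 95% interval from -2.24 to -0.92. With the replicate number as a block the same difference had an SE of 0.09 and an adjusted p of 0.000963. The differences between arrays of the same number were -1.47, -1.64 and -1.62. Of the retained probes, 63 of 27062 had a log2 fold change as low as that of CSF3R or lower.

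The call of CSF3R stood near the threshold of the test. It held under 7 of 17 other settings, with the lower level in the knockdown under all of them and log2 fold changes from -1.88 to -1.23. It was lost with each of the arrays left out except knockdown 1, at adjusted p = 0.0824 without control 1, 0.104 without control 2, 0.0784 without control 3, 0.155 without knockdown 2 and 0.167 without knockdown 3, and it was 0.00897 without knockdown 1. With the slide row as a term the difference was -1.31, the same as within row 2, and its adjusted p was 0.397.

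**Figure D2:**
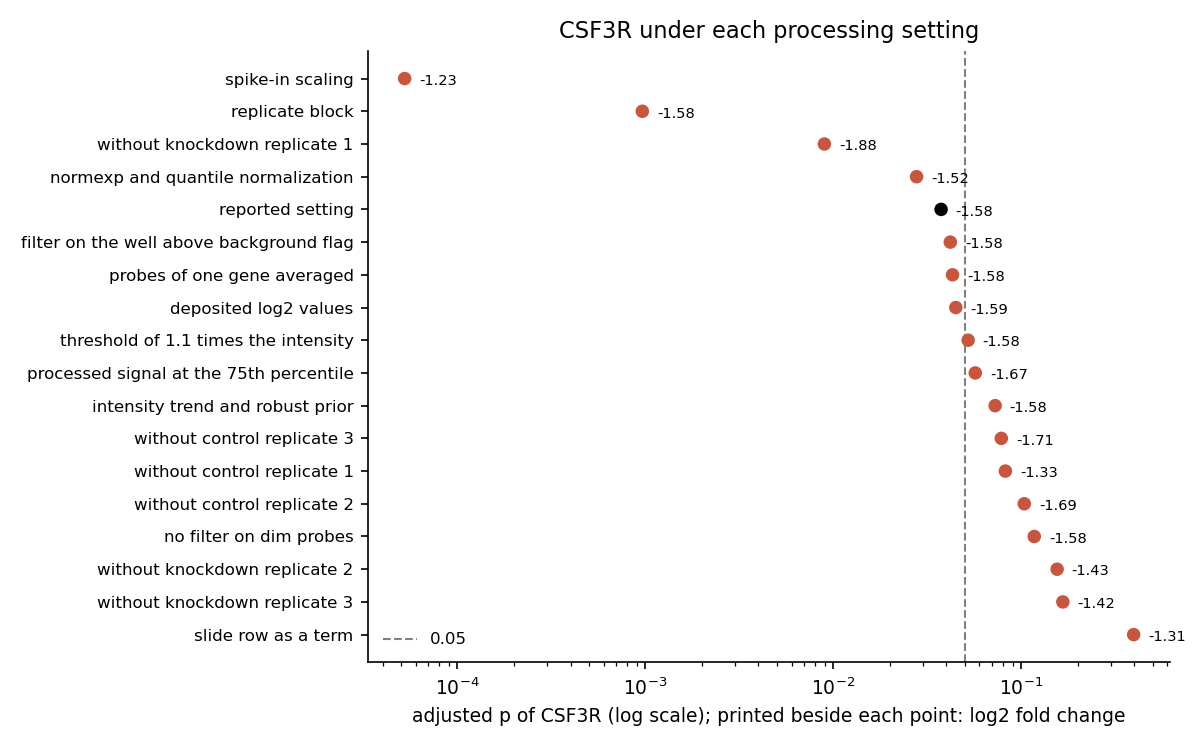
Adjusted p of CSF3R (horizontal axis, log scale) under the reported setting (black) and 17 other settings (red), in the order of p, with the log2 fold change of knockdown against control printed beside each point. The dashed line marks an adjusted p of 0.05. All log2 fold changes are negative, from -1.88 to -1.23, and 10 of the 17 other settings lie to the right of the line.

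CSF1R (A_23_P110791, printed as 4 spots) measured 7.34, 7.65 and 7.90 in controls and 7.53, 7.72 and 7.48 in the knockdown. All of these values were above the threshold, by 1.58 to 1.88, and the groups overlapped. The difference was -0.05 (SE 0.15, limma adjusted p = 0.921), with a 95% interval from -0.40 to 0.30. It turned positive under 4 of 17 settings, at 0.04 with normexp and quantile normalization, 0.03 with the deposited log2 values, 0.29 with spike-in scaling and 0.08 without control 3, and was called under none.

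Of the 4 retained genes other than MPO, 1 was called, CSF3R, where 1.30% of all retained probes were called lower. It was also the only one of these 4 whose groups did not overlap, beside 18.9% of all retained probes. With MPO included, the median log2 fold change of the 5 was -0.12, beside 0.00 (-0.0014) over all retained probes, of which 50.3% were lower.

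**Figure D3:**
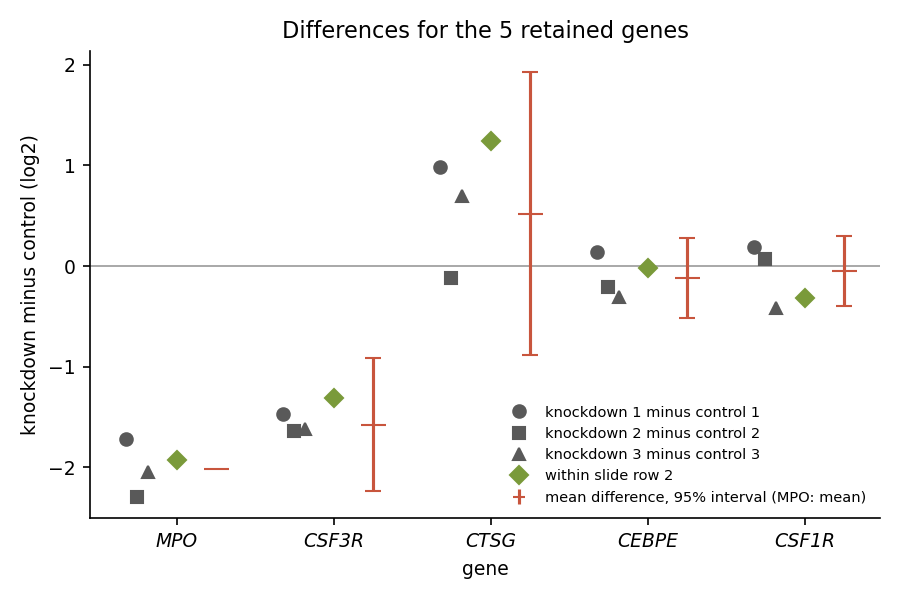
Difference of knockdown minus control (log2, vertical axis) for the 5 retained genes, between arrays of the same replicate number (grey symbols), within slide row 2 (green) and as the mean difference (red), with its 95% interval for all but MPO, which is not tested. MPO and CSF3R lie below 0 for each replicate number, and the intervals of CTSG, CEBPE and CSF1R include 0.

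To place the fall of MPO among related genes, other groups of myeloid genes were described by their counts. None of the other azurophil granule genes was called. Of 13 such genes, 11 had a probe and 5 a retained one, with 5 of 7 probes lower, a median of -0.19 and values from SRGN, the proteoglycan core of granules, at -0.40 (limma adjusted p = 0.329) to the protease inhibitor SERPINA1 at 0.19 (adjusted p = 0.586). With spike-in scaling 1 of these 7 was lower, since that scaling raised the median of all probes by 0.34. The genes not retained included BPI and the defensins DEFA3 and DEFA4. Among 18 genes of the later specific and gelatinase granules, 7 were retained with 8 probes. One probe passed the filter only through the controls, and of the 7 others 3 were lower, with a median of 0.01. The largest fall there was that of a probe of the membrane protease MMP25 at -0.40 (adjusted p = 0.732), and the largest rise that of haptoglobin (HP) at 0.23 (adjusted p = 0.439). Lactoferrin (LTF), cathelicidin (CAMP) and LCN2, of the specific granules, were not retained, whereas the gelatinase MMP9 was over the threshold on all 6 arrays, at -0.03 (adjusted p = 0.935).

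MPO is a heme peroxidase, and among its relatives PXDN, peroxidasin, which cross-links collagen IV in basement membranes, was lower. One PXDN probe (A_33_P3271455) measured 13.27, 13.22 and 12.92 in controls and 12.50, 12.18 and 12.27 in the knockdown. The groups did not overlap, and the difference was -0.82 (SE 0.13, limma adjusted p = 0.0239). The second PXDN probe (A_33_P3238166) had a difference of -0.77 (SE 0.18) and an adjusted p of 0.0889, or 0.0261 with the replicate block. The call of the first probe held under 9 of 17 other settings. It was lost without control 1, control 2, knockdown 2 or knockdown 3, with adjusted p from 0.0756 to 0.125, and within slide row 2 the difference was -0.61. Eosinophil peroxidase (EPX) and lactoperoxidase (LPO), which lie near MPO on its chromosome, were not retained. The markers of eosinophils, basophils and mast cells were mostly dim, with 2 of 10 genes retained, PRG2 at 0.23 (adjusted p = 0.576) and HDC at -0.04 (adjusted p = 0.892).

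Among 19 other transcription factors of myeloid cells, 16 were retained with 21 probes, and NFE2 was called, at a lower level. NFE2, a factor of erythroid cells and megakaryocytes, measured 8.38, 8.51 and 8.34 in controls and 7.27, 6.97 and 7.05 in the knockdown. All knockdown arrays lay below all controls, with a difference of -1.32 (SE 0.11, limma adjusted p = 0.00131). GATA2, a factor of hematopoietic progenitors and mast cells, measured 6.66, 6.49 and 6.95 in controls and 5.19, 5.29 and 4.70 in the knockdown. It was well above background on all controls and on no knockdown array, and on this scale the bound was at least 2.45-fold lower in the knockdown. GATA2 passed the filter only through the controls, where it was high, so these values are a description. Its fitted difference ran from -4.23 with the processed signal to -0.92 with normexp and quantile normalization. The call of NFE2 held under all 17 other settings. With the replicate block, EGR1 at -0.69 (adjusted p = 0.0712, with the block 0.0306) and LMO2 at -0.55 (0.369, with the block 0.0405) were called too, beside 2.53% of all retained probes called lower in that fit. The largest rise was that of SPI1, which encodes the myeloid and B-cell factor PU.1, at 0.57 (SE 0.13, adjusted p = 0.0982). Over the 19 probes that passed through both groups 12 were lower and the median was -0.07.

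Among 13 other growth factors and receptors, 6 were retained with 9 probes and none was called. Of these probes 3 passed the filter through 1 group only, and of the 6 others 5 were lower, with a median of -0.05. The largest fall was that of the interleukin 3 receptor subunit IL3RA, at -0.54 (limma adjusted p = 0.337), which was called with the replicate block (adjusted p = 0.0321). The largest rise was that of FLT3LG, at 0.12 (adjusted p = 0.816). CSF2RA and IL6R were not retained. The stem cell factor receptor KIT had a probe well above background on all 6 arrays, at -0.30 (adjusted p = 0.438).

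Markers of other blood cells were examined in the same arrays. Of 24 monocyte and neutrophil markers with a probe, 12 were retained, and S100A8, S100A9, S100A12 and CD163 were not. One was called, CD68, a lysosomal protein of macrophages, which measured 7.43, 7.37 and 7.40 in controls and 6.93, 6.82 and 6.72 in the knockdown. The groups did not overlap, and the difference was -0.57 (SE 0.10, limma adjusted p = 0.0283), a call that held under 8 of 17 other settings. With spike-in scaling its adjusted p was 0.446, and leaving out any 1 array but knockdown 1 gave 0.0911 to 0.132. FCN1, which measured 6.60, 5.90 and 5.96 in controls and 5.54, 5.54 and 5.61 in the knockdown, passed the filter only through 2 control arrays, and its values are a description. CST3 had the largest rise, at 0.32 (adjusted p = 0.399). Of the 14 probes 3 passed only through the controls, and over the 11 others the median was 0.06, with 5 lower.

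The markers of B-cell precursors, the type of cell the labels give, were well above background, except VPREB1, which was not retained. All 15 of these genes had a probe, 14 were retained with 21 probes, and each of the 21 was well above background on all 6 arrays. None was called, and 19 of the 21 were higher in the knockdown, with a median of 0.23. Over all retained probes the median was -0.0014 and 50.3% were lower. Some of the 14 genes had more than 1 probe, so the 21 are not independent. With the replicate block, where 1.46% of all retained probes were called higher, 4 probes were called, those of CD22 at 0.67 (adjusted p = 0.0518, with the block 0.0235), CD79B at 0.55 (0.162, with the block 0.0325) and both probes of the surrogate light chain gene IGLL1 at 0.53 and 0.68 (0.170 and 0.216, with the block 0.0338 and 0.0114). Over the 17 other settings, the block included, CD22 was called under 5, and CD79B and each IGLL1 probe under 2. With single arrays left out, CD22 was called in 1 fit, and CD79B and IGLL1 in 0. The largest fall was that of the recombinase RAG1 at -0.10 (adjusted p = 0.753). Neither the 7 probes of T and NK cell markers nor the 5 of erythroid cells and megakaryocytes held a call. Of the T and NK cell probes 3 passed the filter through the knockdown only, those of CD2 and CD3E and 1 of CD8A. CD2 measured 5.47, 5.79 and 5.82 in controls, all below their thresholds, and 5.71, 7.39 and 5.98 in the knockdown, so it passed the filter only through 2 knockdown arrays. The lowest of the T and NK cell markers was the other probe of CD8A at -0.06 (adjusted p = 0.892). The extremes of the erythroid and megakaryocyte list were HBG1, a near copy of HBG2, at 0.05 (adjusted p = 0.887) and ITGA2B at -0.36 (adjusted p = 0.310). Whether the markers of other cells had a part in the fall of MPO or CSF3R was not tested.

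**Figure D4:**
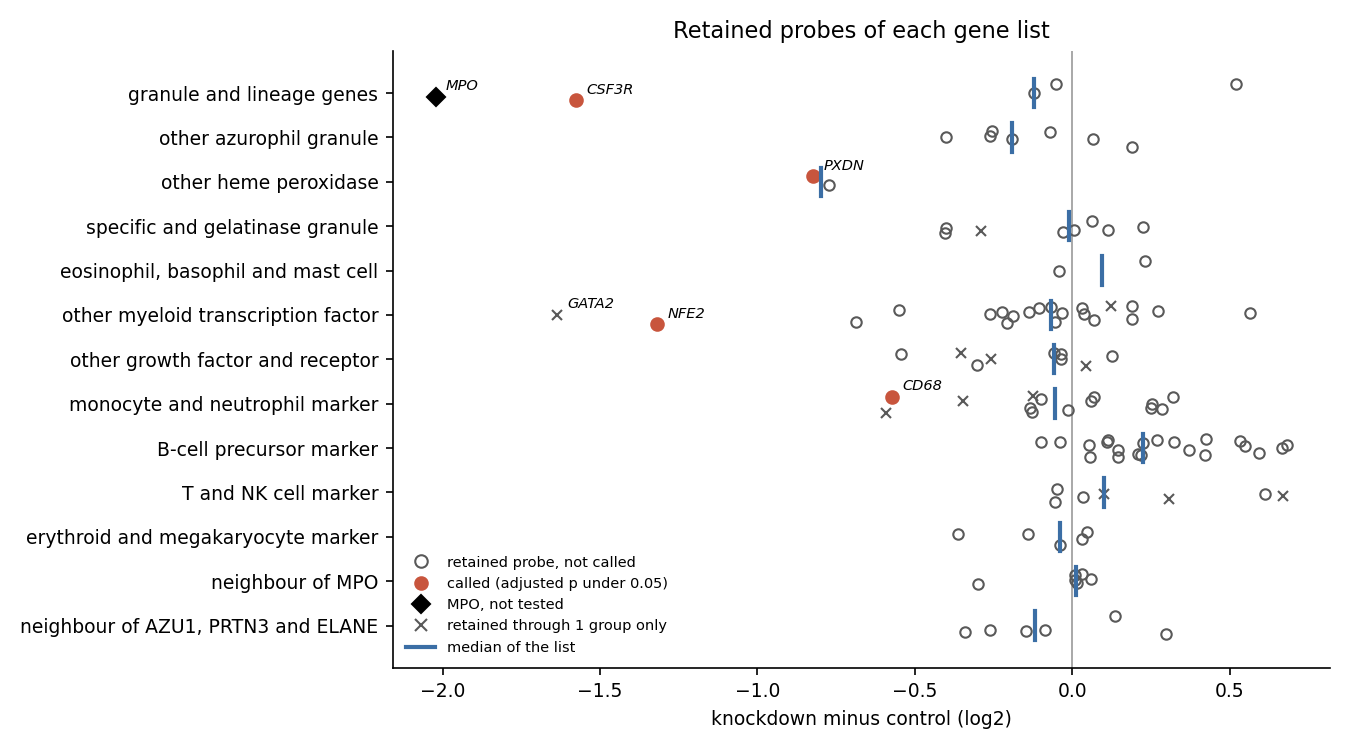
Difference of knockdown minus control (log2, horizontal axis) for each retained probe of the gene lists (rows), with called probes filled in red and named, other probes open, probes that passed the filter through 1 group only as crosses, MPO, whose fall chose the list and which is not tested, as a black diamond, and the median of each list as a blue line. The called probes are CSF3R, PXDN, NFE2 and CD68, all below 0, and the median of the B-cell precursor markers is 0.23. The medians are over all retained probes of a list, with crosses and MPO included. For the monocyte and neutrophil markers the line lies at -0.06, and the median without the crosses is 0.06.

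The genes that lie beside the members on their chromosomes were then examined. Among the 5 protein-coding genes on each side of MPO, 5 genes with 6 probes were retained and none was called. These 6 log2 fold changes ran from -0.30 for SUPT4H1, a transcription elongation factor (limma adjusted p = 0.264), to 0.06 for the phosphatase MTMR4 (adjusted p = 0.891), with a median of 0.01. One control value of MTMR4 was left out for an outlier flag. Around the AZU1, PRTN3 and ELANE cluster, 6 of 10 neighbours were retained and none was called. Their values ran from ARID3A, a factor of B cells, at -0.34 (adjusted p = 0.274) to the splicing regulator PTBP1 at 0.30 (adjusted p = 0.429), with a median of -0.12. With spike-in scaling each of these probes was above 0, with medians of 0.36 and 0.23 beside 0.34 over all probes.

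Finally, the catalogue genes whose centred profile over the 6 arrays lay nearest to that of MPO were listed, as a description with no test. They were CACNB2, a calcium channel subunit, at a distance of 0.32 and a log2 fold change of -1.99, GIMAP6 at 0.34 and -1.79, CITED4 at 0.38 and -1.84, the lysosomal protease CTSL at 0.39 and -1.84, and SOCS2, an inhibitor of cytokine signals, at 0.39 and -1.82. The distance is Euclidean, on the log2 scale, over 6 arrays. No other member of the myeloid list was among these 5. This distance picks genes with a difference of like size, so it cannot show whether the fall was shared.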

How the data were processed

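REH cells were profiled on 6 one-color Agilent arrays, 3 per group. Per the file headers, the authors extracted spots with Feature Extraction 10.7.1.1 on a design of build hg19. The deposited scanner files hold raw median intensity, local background, a processed intensity and other values, namely flags, none normalized between arrays. The authors also deposited log2 values for 27869 probes, made with VSN, background subtraction and a filter against negative controls, per the methods.

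The VSN model was written anew and fitted to raw median intensity with the 0.9 quantile of least squares kept, and its log2 values correlated with the deposited ones at r from 0.99896 to 0.99957 across probes. Spots with an outlier flag were dropped, none was saturated, and a probe's spots were averaged. The threshold was 1.1 times the 0.95 quantile, on the log2 scale, of 308 negative control spots. Tests used limma 3.58.1 (R 4.3.3; lmFit and eBayes, two-sided) with no block. Bounds set the bright group against the higher of the dim probe's value and the lowest value of a probe well above background, per array. The code was tested on simulated data. The number of arrays limits the precision.

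Catalogue probes were named by RefSeq accession, 25724 of 34134 with 1 symbol, and 140 of 146 listed genes had a probe. One listed item is not reported here. Members and lists were chosen with earlier results of these data known. Named were all members, the listed genes called with or without the block, the largest rise and fall of each list, the neighbours' extremes and the 5 nearest profiles; dim or unmatched genes named for their absence of signal, KIT and MMP9 were chosen after their values were seen. Same-numbered arrays deviated together (r = 0.434, 0.298 and 0.211 across probes). Arrays of different number correlated at -0.340 to 0.192, with positive values only between numbers 2 and 3. These values set number 1 apart but hardly tell 2 from 3, so pairing by number is an assumption of the block. Each of 17 alternatives was run one at a time.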

Additional observations from a re-analysis of the deposited data

How the results depend on the processing

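The direction of MPO and CSF3R was kept under all 17 alternatives. MPO was -1.68 with spike-in scaling, which moved the median of all probes to 0.34, and ran from -2.21 to -1.90 with single arrays left out. The number of member probes past the threshold, MPO among them since its fall chose the list, was 1 with the processed signal at the 75th percentile, without a filter on dim probes, with the threshold of 1.1 times the intensity (chosen after seeing the data), with the slide row as a term and with an intensity trend and robust prior, and 1 to 2 with single arrays left out. That number was 3 with spike-in scaling, where CTSG joined at 0.87. Over all probes 482 were called, but 235 without the filter on dim probes, 1015 with spike-in scaling (155 lower), 1081 with the replicate block (686 lower), 213 with the slide row as a term, and 189 to 564 with single arrays left out, with 189 without control 2, 292 without control 1, 255 without control 3, 219 without knockdown 2 and 212 without knockdown 3. The replicate block changed no call among the 5 members. Differences that were not called changed sign for CSF1R (0.0367 with normexp and quantile normalization, 0.0274 with the deposited values, 0.292 with spike-in scaling, -0.197 to 0.0822 with single arrays left out), for CEBPE (0.22 with spike-in scaling, -0.316 to 0.0196 with single arrays left out) and for CTSG (-0.18 to 0.985 with single arrays left out). The cause of these changes was not tested. A fit on mean spot intensity was not run, since the columns used here hold no such value. Signal over background limits ELANE, PRTN3, AZU1 and CEBPA, for which no change could be measured.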
